A study of Mus musculus with 8 samples.

Results

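Setdb1 KO mESCs were set directly against UNC0642-treated mESCs, the 2 single perturbations of a study of H3K9 methyltransferases, so that genes and transposable elements that differ between them could be found without going through lists made against WT. The comparison took the 4 libraries labelled as Setdb1 KO or as UNC0642 out of 8 in all, 2 libraries for each condition. The replicate number was a pairing factor. All 8 libraries were in the fit, so the other 4 also shaped the estimates of spread and of the replicate effect. Of 25215 genes and transposable element subfamilies in the files, 16245 had enough counts to be tested, 15313 genes and 932 subfamilies. All 8 libraries were poly(A) RNA-seq of 1 mouse embryonic stem cell line, #33-6, which carries a conditional Setdb1 allele in every condition, WT included. WT mESCs received neither agent. UNC0642-treated mESCs received the G9a/GLP inhibitor at 2 µM for 3 days. Setdb1 KO mESCs received 4-OHT, which induces the deletion, at 800 nM for 5 days. In the combined condition, by the labels, 2 days of 4-OHT came before 3 days of UNC0642. 4-OHT was given to the Setdb1 KO mESCs and not to the UNC0642-treated mESCs, and the days differed, so agent, duration and perturbation cannot be told apart. The labels do not tie the replicates to separate clones, and p-values measure the spread between the 8 libraries of the fit.

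Methylation of histone H3 at lysine 9 marks silent chromatin. SETDB1 is recruited largely through TRIM28 and KRAB zinc finger proteins and lays down H3K9me3, with endogenous retroviruses of the ERVK and ERV1 families as its best known targets in mESCs. G9a (EHMT2) and GLP (EHMT1) work as a heterodimer that makes H3K9me1 and H3K9me2 over broad domains, and MERVL, the endogenous retrovirus of the 2-cell embryo, is among the elements known to respond to their loss. Both enzymes silence germline genes in mESCs, at promoters that the E2F6, MGA and MAX complex PRC1.6 binds.

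Total counts were between 11702590 and 26807807 per library. Counts assigned to transposable elements made up 11.7% and 9.22% of the Setdb1 KO libraries and 5.46% and 3.93% of the UNC0642 libraries. They made up 3.70% and 2.77% in WT. ERVK elements alone held 3.14% and 3.87% of the Setdb1 KO counts, against 0.696% and 0.505% of the UNC0642 counts. Levels below are CPM, counts scaled to the size of each library with TMM factors, and the first value is always replicate 1. A log2 difference is Setdb1 KO minus UNC0642, so that a value above 0 is higher in Setdb1 KO.

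Among the tested genes, 254 were higher in Setdb1 KO mESCs (1.66% of those tested) and 67 were higher in UNC0642-treated mESCs (0.438%), at an adjusted p under 0.05 in edgeR's quasi-likelihood test. Among the subfamilies, 106 were higher in Setdb1 KO (11.4%) and 0 were higher in UNC0642 (0.0%). At an unadjusted p under 0.05 the subfamilies numbered 272 and 2. Each of the 427 called features differed by more than 2-fold, and 114, 14 and 19 of the 3 sets by more than 10-fold. Both Setdb1 KO libraries lay above both UNC0642 libraries in 249 of the 254 genes, a separation that 11.4% of all genes showed. The reverse separation was found in 66 of the 67 genes and in 12.6% of all genes. Of all subfamilies, 31.1% had both Setdb1 KO libraries on top and 1.39% both UNC0642 libraries. The median difference was -0.02 over all genes and 0.51 over all subfamilies.

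These numbers rest on the pairing and on single libraries. Without the replicate block 64 genes were higher in Setdb1 KO, 2 in UNC0642 and 22 subfamilies in Setdb1 KO, and 88 of the 427 features were still called. Leaving out UNC0642 replicate 2 gave 42, 1 and 18, and leaving out UNC0642 replicate 1 gave 81, 4 and 27. Without Setdb1 KO replicate 1 they were 148, 20 and 57, and without Setdb1 KO replicate 2 they were 155, 14 and 63. Without WT replicate 1 or 2 the counts of genes were higher, at 405 and 167 or 411 and 183. Leaving out replicate 1 or 2 of the combined condition gave 184 and 39 or 167 and 35 genes. Where a Setdb1 KO or UNC0642 library is left out, the remaining one is assumed to vary like the other conditions. Every called feature with a value kept its direction in all of these fits. Each had the same sign in both replicate pairs to begin with, so a reversal was hardly possible and the kept direction supports nothing.

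**Figure D1:**
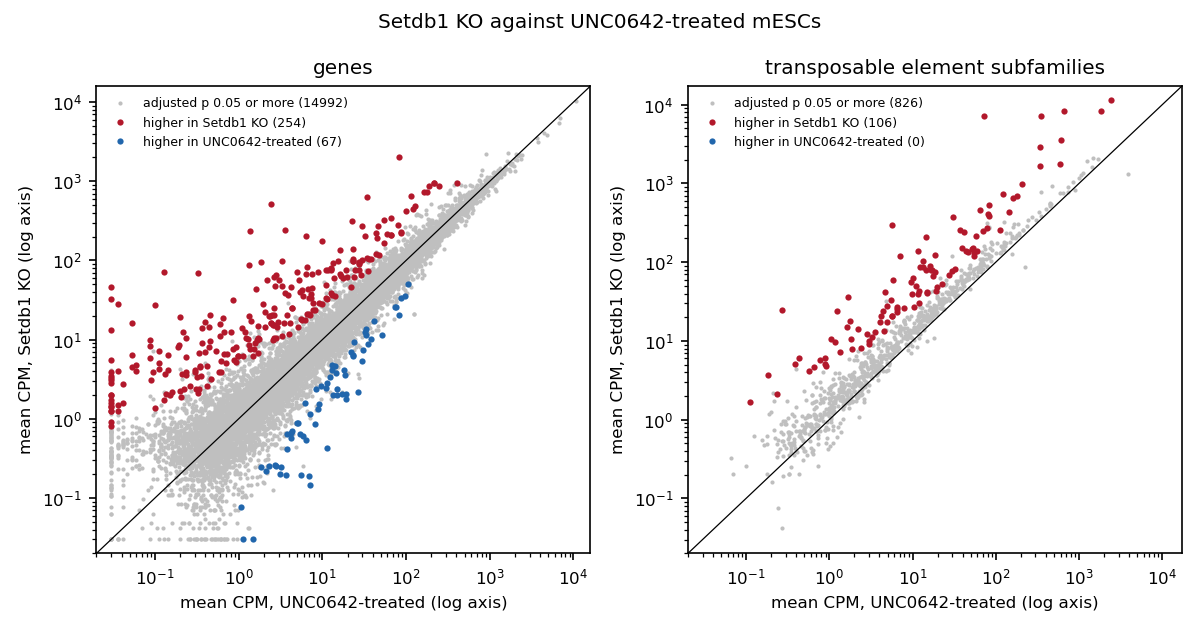
Mean CPM of the 2 Setdb1 KO libraries (vertical, log axis) against that of the 2 UNC0642 libraries (horizontal, log axis) for each tested gene (left) and subfamily (right), with means under 0.03 drawn at 0.03. The 254 genes and 106 subfamilies higher in Setdb1 KO mESCs lie above the line of equal levels and the 67 genes higher in UNC0642-treated mESCs below it.

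Setdb1 itself was at 47.3 and 51.0 CPM in the Setdb1 KO libraries and at 130 and 86.3 CPM in the UNC0642 libraries. WT libraries had 169 and 127 CPM. The Setdb1 KO libraries lay below those of UNC0642 and WT, which overlapped each other. The log2 difference between the single perturbations was -1.09 ± 0.27 (SE), which did not pass the test (edgeR, adjusted p = 0.0920). DESeq2 with the block gave an adjusted p of 0.0164. Counts cover the whole gene, and the deleted exons were not looked at on their own. The genes of the inhibited enzymes had close levels in both conditions. Ehmt1, which encodes GLP, was at 73.5 and 71.8 CPM in Setdb1 KO and at 78.6 and 64.2 CPM in UNC0642 libraries. Ehmt2, which encodes G9a, was at 86.0 and 118 CPM against 63.2 and 110 CPM. No gene of the 15 H3K9 methyltransferases and partners passed the test, nor did any of 9 HP1, HUSH and ATRX-DAXX factors or of 9 DNA methylation writers and erasers.

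In the genes of smallest p, levels were high in Setdb1 KO mESCs and low in UNC0642-treated mESCs. Mmp1b, a collagenase gene at chr9:7368239-7388047 on the minus strand (GRCm38), was at 93.7 and 49.6 CPM in the Setdb1 KO libraries and at 0.188 and 0.0719 CPM in the UNC0642 libraries. The log2 difference was 9.07 ± 0.39 (SE; edgeR, adjusted p = 0.000170). The UNC0642 libraries held only 4 and 2 counts of Mmp1b, so the size of this difference is imprecise despite the small SE. Mmp12, the gene of macrophage elastase at chr9:7344381-7369499, overlaps Mmp1b on the opposite strand. It was at 205 and 263 CPM against 0.987 and 1.76 CPM, a log2 difference of 7.48. Whether reads were counted by strand is not given in the sources used here, so reads of the overlap cannot be assigned to 1 of these 2 genes.

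Clec2g, a C-type lectin gene of the natural killer gene complex at chr6:128934381-128984707, was at 89.1 and 51.7 CPM in Setdb1 KO against 0.329 and 0.324 CPM in UNC0642 libraries. Clec2f, annotated as a transcribed pseudogene beside it, was at 32.4 and 22.5 CPM against 0.094 and 0.108 CPM. Clec2i, the third lectin gene of that stretch, was at 66.0 and 67.3 CPM against 9.07 and 6.11 CPM, where WT had 0.870 and 0.974 CPM. UNC0642-treated mESCs thus lay between WT and Setdb1 KO mESCs at Clec2i, and near WT at Clec2f. Of 13 Clec2 and Klrb1 lectin genes in the files, 7 had enough counts in some condition to be tested. Clec2g, Clec2f and Clec2i were called, against 1.66% of all tested genes, and none was higher in UNC0642-treated mESCs. The count is not a share of the whole group. All 3 stayed called without the replicate block and without any single library. Reads shared by these related genes may be split uncertainly.

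Other leading genes had the same shape. Mep1b, which encodes the beta subunit of the metalloprotease meprin, was at 229 and 180 CPM in Setdb1 KO and at 6.77 and 5.90 CPM in UNC0642 libraries. Cd209c, a C-type lectin of the DC-SIGN group, was at 237 and 781 CPM against 2.26 and 2.59 CPM. Cyp2b23, a cytochrome P450 gene, was at 203 and 153 CPM against 14.0 and 5.72 CPM. For these 3 genes the lower Setdb1 KO library stood above the higher UNC0642 library by more than 10-fold. 2010005H15Rik had no count in either UNC0642 library and 55.3 and 36.9 CPM in Setdb1 KO, which is at least 370-fold higher when the UNC0642 level is set to 3 counts per library. Dbhos, annotated as an antisense RNA gene, and the lincRNA gene Gm19757 had log2 differences of 6.00 and 5.81. Among all called features, 11 had no count in the lower condition and 22 had 1 to 3 counts, so that their fitted fold changes are imprecise.

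**Figure D2:**
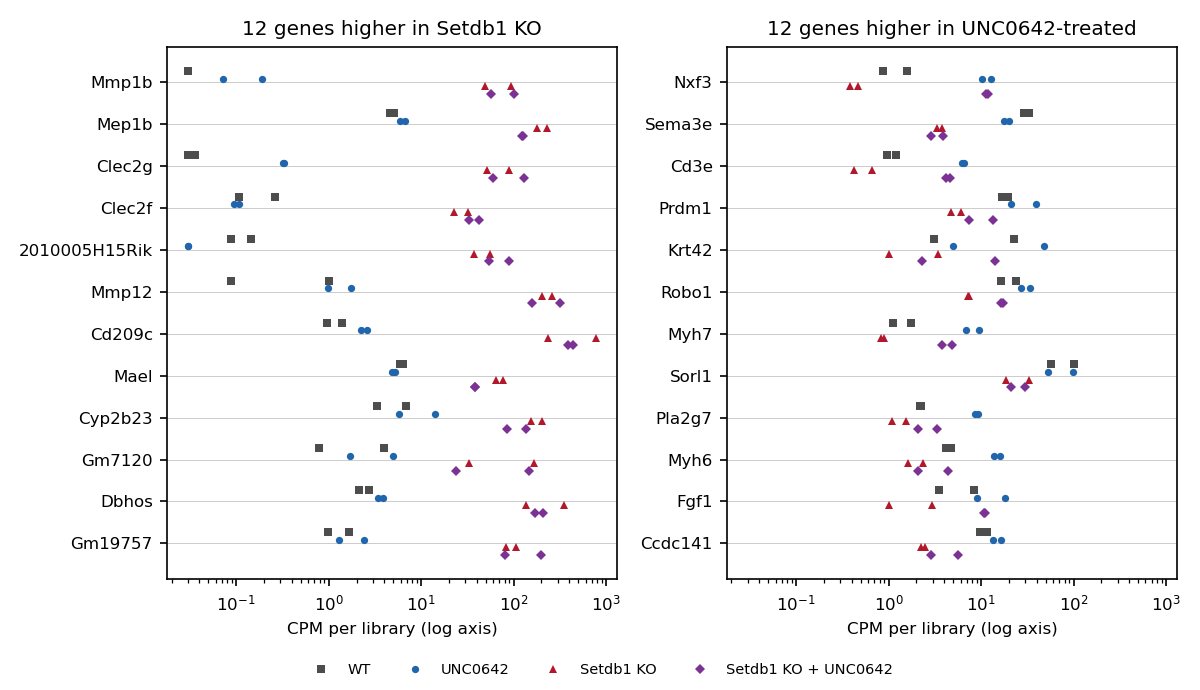
CPM in each of the 8 libraries (log axis, values under 0.03 drawn at 0.03) for the 12 genes with the smallest p in each direction, with symbols for the 4 conditions and 1 point for each library. On the left, both Setdb1 KO libraries and both combined libraries lie above WT and UNC0642 for all 12 genes. On the right, UNC0642 libraries lie above Setdb1 KO libraries, and the combined libraries are near UNC0642 for Nxf3 and near Setdb1 KO for Sema3e.

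Transposable elements differed in 1 direction. All 106 called subfamilies were higher in Setdb1 KO mESCs, with a median log2 difference of 2.27, and 87 of them belonged to ERVK and ERV1. ERVK had 69 of 273 tested subfamilies called and ERV1 had 18 of 103, against 11.4% of all subfamilies. L1 had 14 of 127, close to that share. ERVL and MaLR, with 94 and 87 tested subfamilies, had none called in either direction. Each subfamily value sums reads over many near-identical copies, among which reads with several positions had been shared.

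MMERVK10C-int, the internal part of an ERVK element, was at 5652 and 8834 CPM in Setdb1 KO and at 96.3 and 47.4 CPM in UNC0642 libraries. Its log2 difference was 6.79 ± 0.49 (SE; edgeR, adjusted p = 0.000532). IAPEz-int, of the intracisternal A particles, was at 6026 and 8234 CPM against 426 and 267 CPM, where WT had 418 and 281 CPM. UNC0642 libraries were near WT at IAPEz-int, and both Setdb1 KO libraries were far above them. IAPEy-int was at 195 and 398 CPM against 6.58 and 4.67 CPM. MMERGLN-int, of ERV1, was at 8620 and 8006 CPM against 625 and 692 CPM, a log2 difference of 3.65. ETnERV2-int, of the early transposons, was at 588 and 334 CPM against 81.3 and 49.2 CPM, and its difference of 2.81 was smaller than those of IAPEy-int and MMERVK10C-int.

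By name, 17 of 25 tested IAP subfamilies and 6 of 9 of ETn and MusD were called in Setdb1 KO. So were 10 of 13 of MMERVK10 and RLTR10 and 4 of 5 of MMVL30 and RLTR6, against 11.4% of all subfamilies. The medians of these groups were 2.51, 2.24, 2.72 and 1.92. Without the replicate block the counts were 7, 2, 4 and 1, and without UNC0642 replicate 2 they were 3, 3, 6 and 0. Without UNC0642 replicate 1 they were 7, 5, 4 and 1, and without Setdb1 KO replicate 1 or either combined library MMVL30 and RLTR6 had 2 called. MMERVK9 and RLTR9 had 5 of 14, 0 without the block or UNC0642 replicate 2, 2 without UNC0642 replicate 1 and 3 without any 1 Setdb1 KO or combined library. Of single subfamilies RLTR1B, an LTR, had the smallest p, at 218 and 195 CPM in Setdb1 KO and at 17.8 and 11.3 CPM in UNC0642 libraries.

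Young L1 elements of the mouse were higher in Setdb1 KO as well, where the replicates were further apart. L1Md_A was at 2378 and 955 CPM in Setdb1 KO and at 414 and 266 CPM in UNC0642 libraries, with WT at 153 and 94.0 CPM. Here UNC0642 libraries were above WT and below Setdb1 KO. The L1Md group had 5 of 6 subfamilies called, and the older Lx group 2 of 21, which is no more than the share over all subfamilies (11.4%). Without the replicate block, and without either UNC0642 library, no L1Md or Lx subfamily was called, and no Lx subfamily without either Setdb1 KO library. Leaving out Setdb1 KO replicate 1 or the second combined library left 3 of L1Md.

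**Figure D3:**
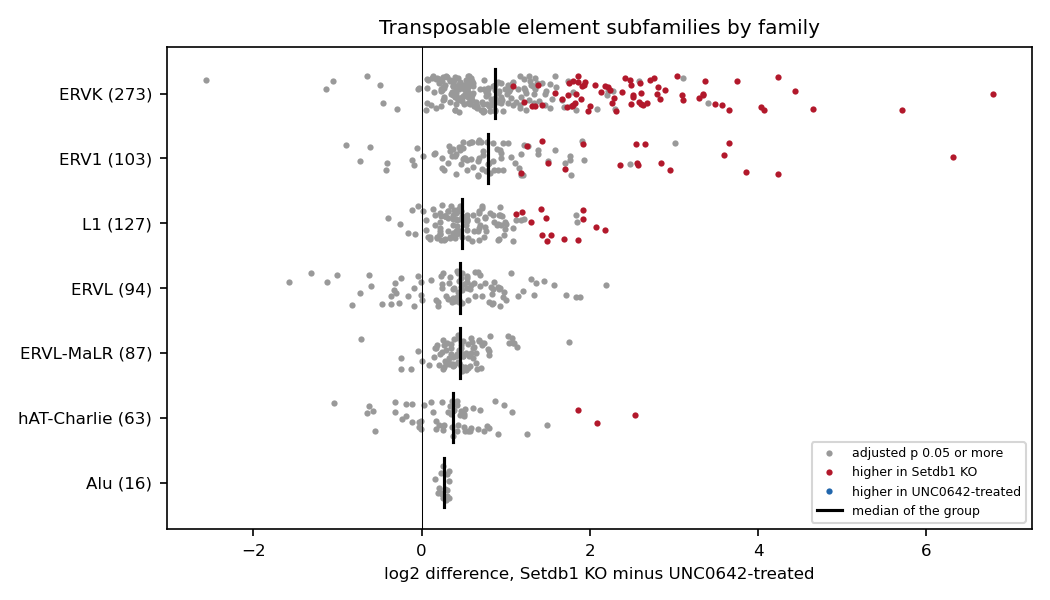
Log2 difference, Setdb1 KO minus UNC0642, for each tested subfamily of 7 families, with vertical bars at the family median and coloured points for subfamilies that passed the test. Points that passed the test are in ERVK, ERV1, L1 and hAT-Charlie, and lie to the right of 0.

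None of the 8 tested subfamilies of MERVL and MT2 passed in either direction. Their log2 differences were above 0 in 4 and below 0 in 4, with a median of 0.07. MERVL-int was at 5520 and 2234 CPM in UNC0642 libraries and at 1916 and 709 CPM in Setdb1 KO libraries, with WT at 97.8 and 270 CPM. Both conditions were above WT. Within replicates 1 and 2 the log2 differences were -1.53 and -1.66, with UNC0642 the higher in both. Across replicates there was little distance between 2234 and 1916 CPM. Replicate 1 was the higher in UNC0642 and in Setdb1 KO, and replicate 2 in WT. The log2 difference of -1.58 ± 0.63 (SE) did not pass (edgeR, adjusted p = 0.359). It passed in the fit on only the 4 libraries compared (adjusted p = 0.0275) and without WT replicate 1 or 2 (adjusted p = 0.00114 and 0.000719), and over all alternatives the adjusted p was between 1.66e-07 and 1. Its promoter LTR, MT2_Mm:ERVL:LTR, had a log2 difference of -1.32 (adjusted p = 0.312).

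The 2-cell list of 23 tested genes had 20 log2 differences below 0, where 8040 of all 15313 genes did, and a median of -0.96. Only Usp17lb, a deubiquitinase gene of a repeated cluster, was called, where 0.438% of all genes were higher in UNC0642. It was at 54.2 and 22.0 CPM in UNC0642 libraries, at 13.1 and 7.48 CPM in Setdb1 KO libraries and at 0.261 and 0.469 CPM in WT. All 4 treated libraries were above WT, and the UNC0642 pair was the higher. The call was lost without the block and without any 1 library of UNC0642, Setdb1 KO or the combined condition, and 6 members were called without either WT library. The summed level of the list was 1295 and 467 CPM in UNC0642, 644 and 265 CPM in Setdb1 KO and 14.8 and 46.1 CPM in WT. In each of the 3 conditions the replicates differed by more than 2-fold, with replicate 1 higher in UNC0642 and Setdb1 KO and replicate 2 higher in WT. Dux, the transcription factor gene upstream of this programme, did not pass and was at 1.64 and 4.39 CPM in UNC0642 against 2.37 and 11.5 CPM in Setdb1 KO libraries.

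Germline genes that mESCs keep silent were higher in Setdb1 KO mESCs in 14 of 24 tested members, and in none the reverse, against 1.66% and 0.438% of all genes. The list's median was 2.08. Mael (chr1:166201201-166238747, minus strand), a piRNA pathway gene that restrains transposons in the germline, was at 64.1 and 77.7 CPM in Setdb1 KO and at 4.79 and 5.25 CPM in UNC0642 libraries. WT had 5.92 and 6.42 CPM, so that the UNC0642 libraries did not exceed WT. Tex101, a germ cell surface glycoprotein gene, was at 23.7 and 39.6 CPM against 0.611 and 1.08 CPM. Mov10l1, an RNA helicase gene of piRNA biogenesis, was at 68.0 and 76.6 CPM against 8.46 and 9.17 CPM. Slc25a31, an ATP and ADP carrier of sperm mitochondria, was at 29.8 and 44.1 CPM against 3.29 and 4.49 CPM. In each of these 4 genes both UNC0642 libraries stayed below both Setdb1 KO libraries by several-fold. Asz1 went the other way without passing (log2 difference -2.62, edgeR adjusted p = 0.0669), at 2.40 and 2.05 CPM in UNC0642 and 0.423 and 0.275 CPM in Setdb1 KO libraries, and was picked after its values were seen. Without the block 7 members were called, without UNC0642 replicate 1 or 2 there were 7 or 6, and without Setdb1 KO replicate 1 there were 9.

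Meiosis genes were called in 5 of 17 cases, all in Setdb1 KO, against 1.66% of all genes, with a list median of 1.16. Stag3, which encodes a cohesin subunit of meiotic chromosomes, was at 50.9 and 102 CPM in Setdb1 KO and at 7.94 and 17.7 CPM in UNC0642 libraries. Hormad1, a meiotic chromosome axis gene, was at 223 and 183 CPM against 34.6 and 29.4 CPM. Sycp2, a component of the synaptonemal complex, was at 9.10 and 7.21 CPM against 1.08 and 0.755 CPM. Sycp1 was spread more widely, at 160 and 44.6 CPM against 46.1 and 12.8 CPM, with the second Setdb1 KO library below the first UNC0642 library. In both replicates Sycp1 was higher in Setdb1 KO. No meiosis gene was called without the block or without UNC0642 replicate 2, 1 was called without UNC0642 replicate 1, and 3 without Setdb1 KO replicate 2 or without either combined library.

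The RefSeq promoter table, of build GRCm38.p6, gives 250 bases before and 50 after a start. A promoter was found for 16 of the 19 called germline and meiosis genes, and 10 (62.5%) held CACGTG, the E-box that MGA and MAX bind. Over all tested germline and meiosis genes, called or not, it was in 13 of 38 (34.2%), with the called ones among them. Of all tested genes with a promoter, 1123 of 11284 (9.95%) held it, of the genes higher in Setdb1 KO 23 of 175 (13.1%), and of those higher in UNC0642 2 of 49 (4.08%). The motif reads the same on both strands. GCGGGA or TCCCGC, the E2F motif on either strand, was in 7 of the 16, in 35 of the 175, in 11 of the 49 and in 35.0% of all. These are 20.0% of the genes higher in Setdb1 KO and 22.4% of those higher in UNC0642. The median number of CG pairs in a promoter was 8 in the former, 9 in the latter and 20 over all genes, and none of these differences was tested. The 16 germline and meiosis promoters had a median of 21.5 CG pairs, and the 13 motifs among the other 159 promoters of genes higher in Setdb1 KO made 8.18%. A match is a description of these letters and not a bound site.

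The 250 bases before the start are shown for 4 germline and meiosis genes that hold the E-box, in capitals, and for Mmp1b and Mmp12, which hold neither the E-box nor a CG pair. They were chosen after their letters were read, to set both kinds of promoter side by side. Mael lies at chr1:166238745-166238994 on the minus strand, Slc25a31 at chr3:40708621-40708870 and Stag3 at chr5:138280259-138280508 on the plus strand, and Hormad1 at chr3:95559427-95559676 on the plus strand. The starts are those of RefSeq. GENCODE M21, another annotation, starts Stag3 at chr5:138280240, so the stretch shown for Stag3 lies wholly inside that annotated gene. It starts Mael at chr1:166238747, Slc25a31 at chr3:40708855, Mmp1b at chr9:7388047 and Mmp12 at chr9:7344381. The last few bases shown for these 4 genes thus lie inside the annotated gene as well. Mmp1b lies at chr9:7388027-7388276 on the minus strand and Mmp12 at chr9:7344147-7344396 on the plus strand. Each is written 5′ to 3′ on the gene's strand.
Mael: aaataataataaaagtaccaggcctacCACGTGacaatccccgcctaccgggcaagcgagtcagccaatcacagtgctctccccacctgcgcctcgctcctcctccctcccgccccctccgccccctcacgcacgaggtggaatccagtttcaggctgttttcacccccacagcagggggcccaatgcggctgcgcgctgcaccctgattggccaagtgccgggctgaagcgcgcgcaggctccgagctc
Slc25a31: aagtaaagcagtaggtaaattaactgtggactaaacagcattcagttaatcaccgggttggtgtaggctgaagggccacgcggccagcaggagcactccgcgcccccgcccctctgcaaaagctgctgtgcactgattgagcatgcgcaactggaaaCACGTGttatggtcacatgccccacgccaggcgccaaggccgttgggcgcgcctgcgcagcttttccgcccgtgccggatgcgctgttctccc
Stag3: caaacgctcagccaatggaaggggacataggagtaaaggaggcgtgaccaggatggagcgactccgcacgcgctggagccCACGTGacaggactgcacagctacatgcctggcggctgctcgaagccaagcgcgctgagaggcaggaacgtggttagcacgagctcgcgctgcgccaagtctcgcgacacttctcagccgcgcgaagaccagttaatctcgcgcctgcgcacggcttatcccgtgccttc
Hormad1: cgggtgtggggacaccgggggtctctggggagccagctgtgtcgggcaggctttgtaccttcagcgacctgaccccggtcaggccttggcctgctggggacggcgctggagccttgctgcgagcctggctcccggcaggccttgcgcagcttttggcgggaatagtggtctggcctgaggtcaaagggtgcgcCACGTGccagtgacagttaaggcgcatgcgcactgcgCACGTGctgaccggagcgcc
Mmp1b: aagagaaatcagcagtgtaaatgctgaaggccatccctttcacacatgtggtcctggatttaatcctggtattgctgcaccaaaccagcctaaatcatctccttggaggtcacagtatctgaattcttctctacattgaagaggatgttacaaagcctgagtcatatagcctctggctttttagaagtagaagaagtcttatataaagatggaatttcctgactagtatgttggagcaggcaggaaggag
Mmp12: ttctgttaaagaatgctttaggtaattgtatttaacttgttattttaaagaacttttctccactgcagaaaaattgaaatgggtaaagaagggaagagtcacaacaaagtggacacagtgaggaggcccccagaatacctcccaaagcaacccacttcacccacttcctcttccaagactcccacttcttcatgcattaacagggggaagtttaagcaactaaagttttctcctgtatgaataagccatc
The E-box begins 223 bases before the RefSeq start in Mael, 93 in Slc25a31, 170 in Stag3 and 57 and 20 in Hormad1. Within these bases Mael and Slc25a31 held 18 CG pairs each, Stag3 held 26 and Hormad1 held 19.

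Single members of other groups of normally silent genes passed the test. Of 39 tested olfactory and vomeronasal receptors, out of 1432 in the files, 5 were higher in Setdb1 KO and 1, Vmn2r1, in UNC0642. Over all genes such calls made 1.66% and 0.438%. Of the receptors, 10 had log2 differences below 0. Olfr613 was at 495 and 151 CPM in Setdb1 KO and at 67.3 and 42.6 CPM in UNC0642 libraries. Olfr901 had no count in the UNC0642 libraries and 3.26 and 7.65 CPM in Setdb1 KO, at least 43.8-fold higher with the floor of 3 counts per library. Receptors enter the test only where some condition has reads, so their count is not a share of all receptors. The count fell to 2 without the block or UNC0642 replicate 1 and to 0 without UNC0642 replicate 2, and it was 3 without either Setdb1 KO library or the second combined library, and 10 or 12 without WT replicate 1 or 2. The call of Vmn2r1 was lost without the block and without any 1 library of UNC0642, Setdb1 KO or the combined condition. The prolactin, Psg, Ceacam and cathepsin clusters, which placenta and epithelia use, have 62 genes in the files, and 8 were tested. Of these Ceacam2, Psg23 and Ceacam19 were called in Setdb1 KO, against 1.66% of all tested genes. As with the receptors, this count is not a share of the whole clusters. Ceacam2 was at 57.1 and 55.5 CPM in Setdb1 KO against 3.05 and 2.95 CPM in UNC0642 libraries. None of the 3 was called without UNC0642 replicate 1 or 2, and 2 were without each Setdb1 KO or combined library.

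Of 36 oocyte genes in the files, 13 had enough counts in some condition to be tested. Called were 2 of the 13, both of the Nlrp4 family, against 1.66% of all tested genes. The count is not a share of the whole list. Nlrp4c was at 85.7 and 68.9 CPM in Setdb1 KO, at 18.9 and 6.22 CPM in UNC0642 and at 1.74 and 1.73 CPM in WT libraries. Both perturbations were above WT at Nlrp4c, and Setdb1 KO was the higher of them by a log2 difference of 2.81 ± 0.40 (SE; edgeR, adjusted p = 0.00897), which was not called without the block (0.169) or without UNC0642 replicate 2 (0.144). Nlrp4a was at 12.7 and 15.1 CPM against 0.705 and 1.47 CPM, with WT at 1.92 and 2.60 CPM. Here UNC0642 libraries were not above WT. The Nlrp4a call was lost without UNC0642 replicate 1.

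Imprinted genes had 4 of 32 called, against 1.66% of all genes, and 3 of the 4 are neighbours in 1 locus on chromosome 12. Rian, a maternally expressed non-coding RNA, was at 4.40 and 34.4 CPM in Setdb1 KO and at 0.188 and 0.216 CPM in UNC0642 libraries. Meg3, the non-coding RNA upstream of it, was at 1.31 and 15.4 CPM against 0.141 and 0.036 CPM. Dlk1, the paternally expressed ligand gene of that domain, had 49 counts in the Setdb1 KO and 2 in the UNC0642 libraries, a ratio of 28.8 (95% exact interval 7.55 to 244, for counting error only). At all 3 genes the second Setdb1 KO library was several times the first. Kcnq1ot1, the antisense RNA of another imprinted domain, was at 44.5 and 26.8 CPM against 18.7 and 9.71 CPM. None of the 4 was called without the block or without UNC0642 replicate 2, 1 was without Setdb1 KO replicate 2 or either combined library, and 2 without UNC0642 replicate 1 or Setdb1 KO replicate 1.

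Single members of other lists were called, where 1.66% of all tested genes were higher in Setdb1 KO. Gabrr1, a GABA receptor subunit gene, had 1115 counts in the Setdb1 KO and 2 in the UNC0642 libraries, a ratio of 655 (95% exact interval 181 to 5410, for counting error only). Gria4, of the glutamate receptors, was the other one of 25 receptor genes. Idi1, an isomerase gene of cholesterol synthesis, was at 1217 and 689 CPM in Setdb1 KO and at 345 and 85.3 CPM in UNC0642 libraries. No other of the 24 cholesterol synthesis genes was called, and their median was -0.23. H2-Q4, of the MHC class I genes, was at 90.9 and 62.5 CPM against 20.9 and 17.2 CPM, and was the only one called of 28. Bst2, which tethers budding virus, was at 9.52 and 31.0 CPM against 3.01 and 4.46 CPM, with WT at 10.4 and 9.02 CPM. The first Setdb1 KO library was thus near WT, and both UNC0642 libraries were below WT. Bst2 was the only one called of 22 RNA sensing and interferon-stimulated genes. Of these 5 genes Gabrr1 alone was called without the replicate block and without every single library.

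None passed among 20 X-linked testis antigens, 9 Rhox genes, 20 clustered protocadherins and 17 ATF4 stress response genes, with medians of -0.55, -0.53, -0.38 and -0.16. The 18 p53 target genes all had log2 differences above 0, against 7273 of all 15313 genes, with a median of 0.97, and none passed. Trp53inp1 had the smallest adjusted p of them (edgeR, adjusted p = 0.0542, log2 difference 1.56). Their summed level was 2320 and 2037 CPM in Setdb1 KO and 1349 and 880 CPM in UNC0642 libraries, with WT at 1736 and 1269 CPM. The Setdb1 KO libraries were above WT and the UNC0642 libraries, replicate by replicate, below it.

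**Figure D4:**
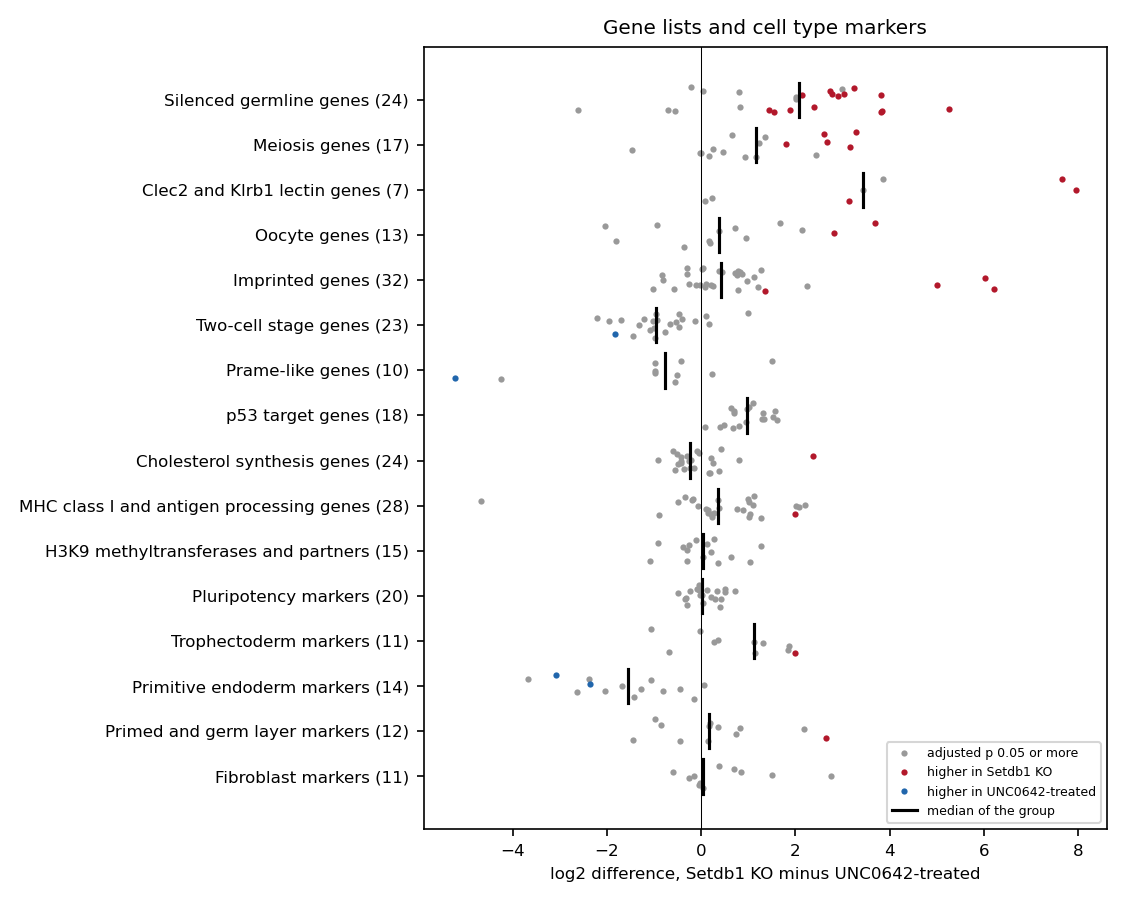
Log2 difference, Setdb1 KO minus UNC0642, for the tested members of 16 gene lists and marker lists, with the number tested in brackets and a vertical bar at the median. Silenced germline genes have 14 of 24 points that passed, all to the right of 0. Two-cell stage genes and primitive endoderm markers have medians of -0.96 and -1.55.

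The genes higher in UNC0642-treated mESCs were fewer and closer in level. Nxf3, of the nuclear RNA export factors, at chrX:136072099-136085255 on the minus strand, was at 12.8 and 10.2 CPM in UNC0642 and at 0.466 and 0.385 CPM in Setdb1 KO libraries. Its log2 difference was -4.74 ± 0.43 (SE; edgeR, adjusted p = 0.00111), and WT had 1.57 and 0.866 CPM. The combined libraries, at 12 and 11.3 CPM, were as high as those with UNC0642 alone. Cd3e, a subunit of the T cell receptor complex, was at 6.20 and 6.58 CPM against 0.423 and 0.660 CPM. Nxf3 and Cd3e were the 2 genes still called without the replicate block, and of them Nxf3 was still called without each single library.

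The cardiac myosin genes Myh6 and Myh7, which lie side by side and share sequence, were both called. Myh6 was at 16.1 and 13.9 CPM in UNC0642 and at 1.61 and 2.37 CPM in Setdb1 KO libraries, with WT at 4.79 and 4.18 CPM. Myh7 was at 6.86 and 9.42 CPM against 0.889 and 0.825 CPM. UNC0642 libraries were above WT for both genes, while Setdb1 KO libraries were below it. Pla2g7, which encodes an enzyme that breaks down platelet-activating factor, was at 9.21 and 8.70 CPM against 1.10 and 1.54 CPM. Pramel6, of the Prame-like genes, was at 4.79 and 9.60 CPM against 0.296 and 0 CPM. Its call was lost without the block, without either UNC0642 library and without the second library of Setdb1 KO or the combined condition.

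In other genes of this set it was Setdb1 KO that lay away from WT. Sema3e, a secreted guidance ligand gene, was at 3.81 and 3.36 CPM in Setdb1 KO and at 17.9 and 19.8 CPM in UNC0642 libraries, with WT higher still at 33.2 and 29.2 CPM. Prdm1, which encodes the repressor BLIMP1, was at 4.78 and 6.11 CPM against 20.9 and 38.9 CPM, with WT at 16.7 and 19.6 CPM. Sorl1, a sorting receptor gene, was at 18.6 and 33.1 CPM against 53.5 and 98.3 CPM. Its WT libraries, at 57.3 and 102 CPM, were at the level of the UNC0642 libraries. Krt42, a keratin gene, was far apart between UNC0642 replicates, at 4.93 and 48.4 CPM, as between WT replicates, at 3.13 and 22.7 CPM, and was at 1.02 and 3.41 CPM in Setdb1 KO libraries.

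Levels beside WT sort the called genes, as a description in which both differences share the WT libraries. Of all genes, 11.1% were at least 2-fold above WT in Setdb1 KO and 7.87% in UNC0642, and 4.49% were that far below WT in UNC0642. Of the 254 genes higher in Setdb1 KO, 154 were at least 2-fold above WT in Setdb1 KO and within 2-fold of WT in UNC0642. Another 69 were at least 2-fold above WT in both, 21 were above WT in Setdb1 KO and below it in UNC0642, and 10 were within 2-fold of WT in Setdb1 KO. For the 69 genes the median log2 difference from WT was 5.95 in Setdb1 KO and 1.79 in UNC0642. Of the 106 subfamilies, 95 were above WT in Setdb1 KO alone and 11 in both, where 45.7% of all subfamilies were at least 2-fold above WT in Setdb1 KO and 9.44% in UNC0642. Of the 67 genes higher in UNC0642, 24 were at least 2-fold below WT in Setdb1 KO and within 2-fold in UNC0642, where 6.81% of all genes were that far below WT in Setdb1 KO. In 17 genes Setdb1 KO was below and UNC0642 above WT, in 20 UNC0642 was above WT with Setdb1 KO not below, and in 6 both were within 2-fold.

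The combined condition was at least 2-fold above WT in 232 of the 254 genes, against 14.2% of all genes. It was so in all 106 subfamilies, against 53.4% of all subfamilies. Among the 67 genes it was at least 2-fold above WT in 18 of the 20 genes with UNC0642 above and Setdb1 KO not below WT, in 9 of the 17 with both and in none of the 24 genes that Setdb1 KO alone had below WT. It was at least 2-fold below WT in 17 of those 24, against 16.7% of all genes. These shares were largely set by how the features were chosen, and they support nothing. The combined condition carries both perturbations, is set against the same WT libraries and was in the fit that made the calls.

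**Figure D5:**
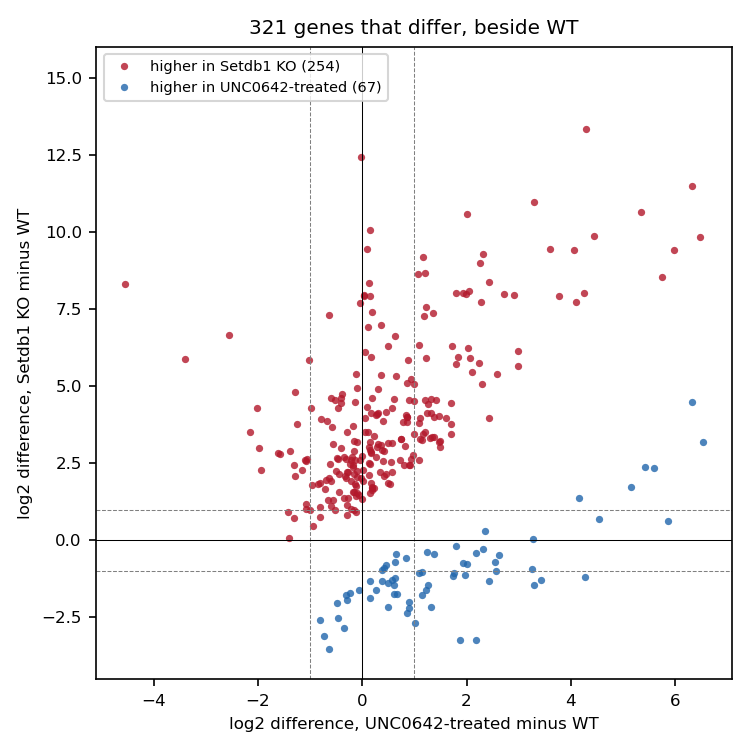
Log2 difference from WT for Setdb1 KO (vertical) and for UNC0642 (horizontal) in the 321 called genes, with dashed lines at 2-fold. Both axes share the WT libraries. The 254 genes higher in Setdb1 KO are mostly above the upper dashed line, and the 67 genes higher in UNC0642 lie either below the lower dashed line or to the right of the right one, with 6 between them.

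Cell type markers differed in part. None of 20 pluripotency markers passed, and their summed level was 6961 and 6568 CPM in Setdb1 KO and 6994 and 6629 CPM in UNC0642 libraries. Primitive endoderm markers had 13 of 14 log2 differences below 0, a median of -1.55 and 2 called, Lama1 and Pdgfra. Of all 15313 genes, 8040 had differences below 0 and 0.438% were called in UNC0642. Lama1, a laminin chain gene, was at 41.6 and 62.4 CPM in UNC0642 and at 5.80 and 17.1 CPM in Setdb1 KO libraries. Pdgfra, a growth factor receptor gene, was at 18.1 and 15.9 CPM against 1.48 and 2.59 CPM. The list summed to 462 and 559 CPM in UNC0642, 293 and 294 CPM in Setdb1 KO and 294 and 602 CPM in WT libraries. The WT replicates differed more than the means of the other 2 conditions. Sox17 and Foxa2, members of this list picked after the data were seen, were at or below 2.34 CPM in these 6 libraries. They do not stand for the other members. Neither Lama1 nor Pdgfra was called without the block or without any one of the UNC0642 or Setdb1 KO libraries, and 6 markers were called without either WT library. The part of such cells in the 67 genes higher in UNC0642 was not tested, and in bulk RNA fewer cells of a type and less RNA per cell cannot be told apart.

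Trophectoderm markers had 1 of 11 called, Krt18, at 11.3 and 8.58 CPM in Setdb1 KO against 3.15 and 1.98 CPM in UNC0642 libraries. Over all genes 1.66% were called in Setdb1 KO. The trophectoderm list summed to 139 and 73.4 CPM in Setdb1 KO, 54.2 and 60.5 CPM in UNC0642 and 90.3 and 96.9 CPM in WT libraries. Krt18 was called neither without the block nor without any UNC0642, Setdb1 KO or combined library. Of 12 primed and germ layer markers, Otx2, a transcription factor gene of the primed epiblast, was called, at 321 and 228 CPM in Setdb1 KO against 67.6 and 25.8 CPM in UNC0642 libraries. The call was lost without the block and without UNC0642 replicate 2. None of 11 fibroblast markers passed.

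Some called genes lay beside each other. With starts no more than 100 kb apart, 43 of the genes higher in Setdb1 KO formed 18 runs and 8 of the genes higher in UNC0642 formed 4 runs. The share of runs over all tested genes was not computed. Runs of 3 in Setdb1 KO included Clec2i with Clec2g and Clec2f, Dlk1 with Meg3 and Rian, and E030030I06Rik with Raet1e and H60b. H60b (chr10:22158586-22288849) lies inside Raet1e (chr10:22158569-22374139) on the same strand, so these genes may share reads and are not separate neighbours. The UNC0642 runs included Myh6 with Myh7 and Krt17 with Krt42. Of the 321 called genes, 109 overlapped a gene on the opposite strand, with which they may share reads. By chromosome, the share of tested genes higher in Setdb1 KO was between 0.0% on chromosome 19 and 2.96% on chromosome 18.

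Gm4971 and Trpd52l3, 2 genes that the study singled out, were higher in UNC0642 libraries without passing. The study reported, by qRT-PCR, that UNC0642 raised them further in Setdb1 KO mESCs. The contrast of the 2 single perturbations does not test that. Gm4971, a pseudogene of the processed type, was at 12 and 7.37 CPM in UNC0642 and at 2.96 and 0.605 CPM in Setdb1 KO libraries. WT had 0.261 and 0.577 CPM, and the combined libraries had 35.4 and 23.4 CPM. The log2 difference was -2.55 ± 0.56 (SE; edgeR, adjusted p = 0.0550), and the adjusted p ranged from 0.000138 to 0.512 over the alternatives. Trpd52l3 had 10 and 20 counts in the UNC0642 and none in the Setdb1 KO libraries. This is at least 4.07-fold lower in Setdb1 KO with the floor of 3 counts per library (edgeR, adjusted p = 0.128). Its counts were 0 and 1 in WT and 39 and 21 in the combined libraries.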

How the data were processed

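Poly(A) RNA of 8 mESC libraries, 2 each of WT, UNC0642, Setdb1 KO and both, was sequenced as 150-bp pairs. Per the labels and the paper's methods, the authors trimmed reads (Trim Galore 0.3.7), mapped them with TopHat2 to mm10 (GRCm38) and counted them with TEtranscripts, sharing reads with several positions. What they deposited are whole-number counts for each gene and subfamily, not normalized.

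Conditions and replicate numbers came from the labels. Counts were fitted with edgeR 4.0.16 (R 4.3.3) by glmQLFit over all 8 libraries, with condition and replicate number as terms, TMM factors and filterByExpr (minimum count 10, total 15). The contrast Setdb1 KO minus UNC0642 was adjusted by Benjamini-Hochberg over genes and subfamilies together and called at an adjusted p under 0.05. The SE of a log2 difference follows from its size and the F statistic, with 3 residual degrees of freedom. Numbers pair the libraries: deviations from condition means correlated at 0.285 to 0.663 over the 6 pairs of conditions (0.563 for Setdb1 KO and UNC0642), and no label says what the number marks.

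Alternatives were fits without the block, on only the 4 libraries, with DESeq2 1.42.0, with other scaling or filters, and without each library. Scripts were tested on simulated data. Genes were placed with GENCODE M21 (GRCm38), and 313 of 321 called genes matched. The detection floor is 3 counts per library. Intervals cover counting error only.

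Named were Setdb1, Ehmt1, Ehmt2, 3 genes of the study, the 12 genes and 10 subfamilies of smallest p in each direction among those whose groups did not overlap, and up to 4 members per list. The comparison, lists and members were chosen with earlier results of these data known, so list counts support nothing independently. List counts under the alternatives, and other genes named, were added after seeing the data.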

Additional observations from a re-analysis of the deposited data

How the results depend on the processing

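With 2 libraries per condition, the spread of each gene rests on few degrees of freedom, and the counts of calls followed the pairing and single libraries more than scaling. Every called feature with a value kept its direction in each alternative, which was nearly fixed in advance, as both replicate pairs already had the same sign. Genes higher in Setdb1 KO, genes higher in UNC0642 and subfamilies higher in Setdb1 KO were 254, 67 and 106. They were 64, 2 and 22 without the replicate block, and 49, 1 and 11 without it on only the 4 libraries. DESeq2 with the block gave 476, 206 and 177, and on only the 4 libraries 402 and 176 genes. DESeq2 without the block gave 66 subfamilies on the 4 libraries. Subfamilies higher in UNC0642 were 0, and 2 on only the 4 libraries with the block in edgeR and in DESeq2. Without an expression filter 109 genes were higher in UNC0642. Above 10-fold, 114, 14 and 19 features were left. With 1 library left out, the 4 counts ranged from 42 to 411, from 1 to 183, from 18 to 137 and from 0 to 2. The cause of these shifts was not tested. RLE factors, total counts and TMM from genes only kept each count within 1.5 times, and total counts moved the median gene from -0.02 to -0.13. Of 92 named features called, 38 were still called without the block and 34 without UNC0642 replicate 2. Of those not called, Ehmt1 changed sign around 0.03, at -0.071 with total counts and, with 1 library left out, from -0.105 (UNC0642 replicate 2) to 0.158 (UNC0642 replicate 1), with -0.023 without Setdb1 KO replicate 2 and -0.0020 without combined replicate 2. At 3 counts per library, the floor is 0.112 to 0.256 CPM when scaled by total counts alone. The levels given here also carry TMM factors, so on their scale the floor differs somewhat in each library. The paired fit is the one reported, and a prior count of 2 changed no call.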

Other observations

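Genes of the ligands that the natural killer receptor NKG2D binds were picked after their values were seen and are given as values. H60b was at 10.8 and 5.34 CPM in Setdb1 KO, at 0.705 and 0.180 CPM in UNC0642 and at 1.13 and 0.866 CPM in WT libraries. Raet1e was at 22.7 and 19.5 CPM, 7.19 and 5.75 CPM and 8.18 and 6.24 CPM in the same order. As H60b lies inside Raet1e on the same strand, the values of these genes may not be separate. Raet1c had a log2 difference of 1.55 and Ulbp1 one of 2.28, both called in Setdb1 KO. UNC0642 libraries were below WT at H60b in both replicates, and close to WT at Raet1e. Prnp, the prion protein gene, was at 1510 and 2492 CPM in Setdb1 KO, against 95.7 and 69.8 CPM in UNC0642 and 107 and 75.3 CPM in WT libraries.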
